A study of Mus musculus with 14 samples.

Results

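A set of 8 genes of DNA mismatch repair and replication was followed through the exomes of 12 mouse mammary tumours: the MutS homologs Msh6 and Msh3, the MutL homologs Pms2, Mlh3 and Pms1, the exonuclease gene Exo1, and the catalytic subunits of the replicative DNA polymerases epsilon (Pole) and delta (Pold1). They were chosen by name, with earlier results of these data known, as 8 of the 21292 protein-coding gene names with a variant listed in at least 1 tumour. All 8 were found, under the gene IDs ENSMUSG00000005370 (Msh6), ENSMUSG00000014850 (Msh3), ENSMUSG00000079109 (Pms2), ENSMUSG00000021245 (Mlh3), ENSMUSG00000026098 (Pms1), ENSMUSG00000039748 (Exo1), ENSMUSG00000007080 (Pole) and ENSMUSG00000038644 (Pold1). Msh6 and Pold1 carried at least 1 frameshift variant in every tumour, Msh3 carried exactly 1 missense variant in every tumour, and Exo1 had no coding variant in any. None of the 8 genes passed a test for a difference between groups, or for a relation to the tumours' totals, after adjustment over all genes tested.

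Mismatch repair removes bases that were mispaired, and short loops that were left, when DNA was copied. MutS proteins bind the mispair, MutL proteins are recruited to it and nick the new strand, an exonuclease digests that strand past the error, and a replicative polymerase fills the gap. Loss of mismatch repair is known for leaving many frameshifts in short repeats, and loss of polymerase proofreading for leaving many base substitutions.

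The series set out to relate DNA damage in tumours to tension in the tissue and to oxidative stress. Every tumour grew from a Balb/c p53null mammary fragment, so absence of p53 was common to all groups, and tumours were taken at a maximum diameter of 2 cm. In the gel experiment a fragment from a donor aged 8 to 10 weeks was placed in the cleared mammary fat pad of a wild-type female aged 3 to 4 weeks, in rat tail collagen 1 with 20% basement membrane extract. The collagen had stood for 10 to 14 days, either with 500 mM L-ribose, which crosslinks it (stiff; tumours A7, A8 and A9), or without it (soft; A1, A2 and A3). In the host experiment the fragments grew in mice with LysM-Cre, which drives Cre in the myeloid lineage, that were knockout for GPX4 (KO; B4, B5 and B6) or wild type for it (WT; B1, B2 and B3). Host cells are part of the tumour tissue, and the labels do not say whether tumours of a group came from 1 donor or several. DNA, not RNA, was measured, so the tissue label could not be checked against marker expression. The 2 tail samples were not analysed here.

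The values are numbers of variants as listed by snpEff, which sorts each variant by its predicted effect on a transcript. Whether variants seen in a normal sample had been taken out is not stated in what was used here. Protein-altering variants are those of HIGH impact (frameshift, stop gained, splice site) and MODERATE impact (missense, in-frame insertion or deletion), coding variants also include LOW impact (such as synonymous), and MODIFIER variants lie in introns, UTRs and flanks. The files hold no position, base change, allele fraction or read depth, so inherited differences from the reference, acquired changes and false calls could not be told apart, and neither could an identical variant in 2 tumours from 2 different ones. Tumours held 5976 to 11186 missense variants and 1315 to 3382 frameshift variants over all protein-coding genes. Tumours A9 and B5 stood apart with 19.9 and 23.1 frameshift variants per 100 missense variants, against 27.7 to 30.8 in the other 10 tumours. Coding lengths were not used here, so counts of different genes are not set against each other per length.

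The 8 genes together held 28, 20 and 22 protein-altering variants in the stiff tumours, 22, 31 and 20 in the soft tumours, 22, 19 and 22 in the KO-host tumours, and 27, 27 and 20 in the WT-host tumours. Most of them recurred in number: when each gene was taken at its lowest count in any tumour, the 8 genes summed to 15, a floor that over 12 tumours makes up 64.3% of the 280 protein-altering variants of the 8 genes, against 36.6% of 138452 over all protein-coding genes. Of the 8, Msh6, Msh3, Pole and Pold1 (4 genes) had at least 1 protein-altering variant in all 12 tumours, as had 7.48% of all protein-coding genes. Pms2, Mlh3 and Pms1 had one in some tumours, and Exo1 in none. Msh6 alone gave 8 of the floor of 15. The 8 genes were chosen with earlier results known, so these contrasts with all genes describe the choice and carry no test.

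**Figure D1:**
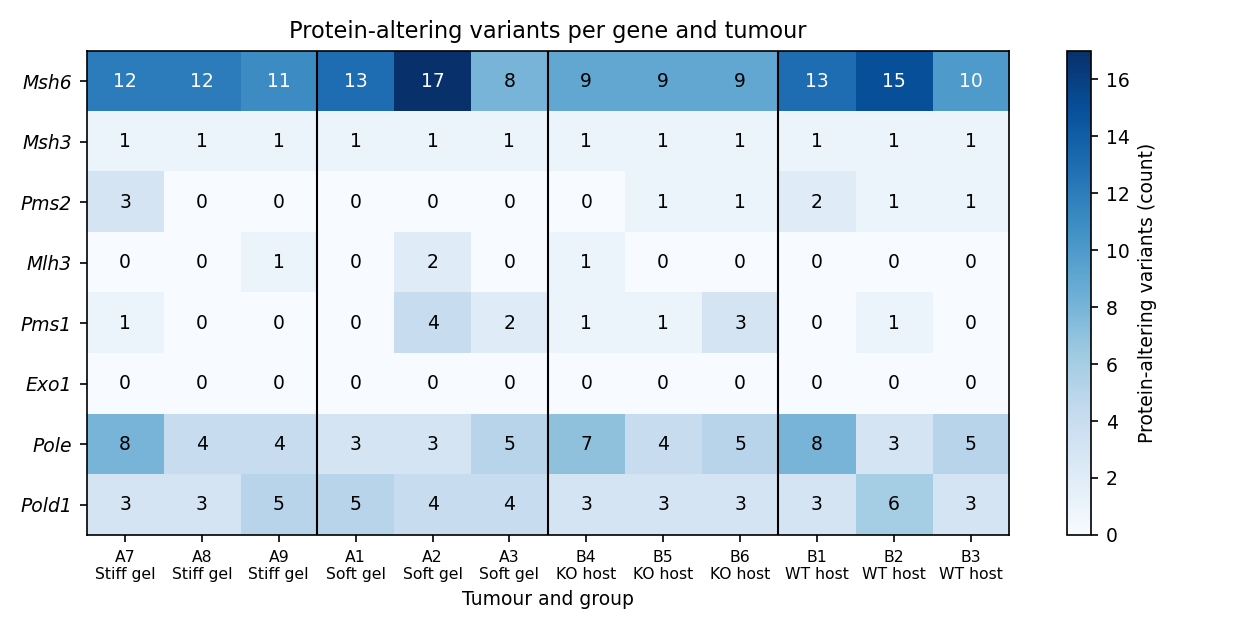
Number of protein-altering variants (HIGH plus MODERATE impact, maximum over transcripts) of each gene (rows) in each tumour (columns, by group), with the count in each cell and by colour. Msh6 is the darkest row, with 8 to 17, Msh3 reads 1 throughout and Exo1 reads 0 throughout.

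Msh6, the subunit of the MutS dimer that recognises single mispaired bases and short loops, had the most protein-altering variants of the 8 genes. It held 12, 12 and 11 in the stiff tumours, 13, 17 and 8 in the soft tumours, 9, 9 and 9 in the KO-host tumours, and 13, 15 and 10 in the WT-host tumours, a mean of 11.5 ± 2.71 (SD, n = 12). The highest and the lowest count were both from soft gels, A2 with 17 and A3 with 8.

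Frameshift variants were the steadiest kind in Msh6. There were 4, 3 and 3 in the stiff tumours, 3, 4 and 3 in the soft tumours, 3, 3 and 4 in the KO-host tumours, and 3, 3 and 3 in the WT-host tumours. Only 32 protein-coding genes, 0.15% of them, had 3 or more frameshift variants in all 12 tumours, and 2.07% had at least 1. All of the frameshift variants of Msh6 lay on ENSMUST00000005503, and the other of its 2 listed transcripts, ENSMUST00000234756, had none. Whether the 3 are identical between tumours was not tested, because positions are not in the files.

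Missense variants made up most of the rest of Msh6 and carried most of its spread. They numbered 7, 8 and 8 in the stiff tumours, 9, 13 and 5 in the soft tumours, 6, 6 and 5 in the KO-host tumours, and 9, 10 and 7 in the WT-host tumours. Synonymous variants, which leave the protein as it is, ranged over a narrower 4 to 6 per tumour. Over the 12 tumours Msh6 summed to 93 missense and 60 synonymous variants. In-frame insertions or deletions were listed in A7, A8, A1, B1 and B2, and no stop gained or splice-site variant of HIGH impact was listed in any tumour.

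Msh3, its counterpart in the dimer that recognises larger loops, had 1 protein-altering variant in each of the 12 tumours, a missense variant every time. A single repeated count of this kind, the same and above 0 in all 12 tumours, was found in 0.672% of protein-coding genes. The coding sequence was otherwise near empty, with 1 synonymous variant each in B6 and B1 and no frameshift. Its MODIFIER count, in contrast, spread widely: 17, 22 and 18 in the stiff tumours, 19, 39 and 54 in the soft tumours, 25, 30 and 80 in the KO-host tumours, and 76, 71 and 50 in the WT-host tumours.

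The MutL genes had few protein-altering variants, and none of them in every tumour. Pms2, which carries the endonuclease of the main MutL dimer, held 3, 0 and 0 in the stiff tumours, 0, 0 and 0 in the soft tumours, 0, 1 and 1 in the KO-host tumours, and 2, 1 and 1 in the WT-host tumours. All were missense variants except 1 splice acceptor variant in B1, and Pms2 had no frameshift in any tumour. Mlh3, a MutL protein best known for crossing over in meiosis, held 0, 0 and 1 in the stiff tumours, 0, 2 and 0 in the soft tumours, 1, 0 and 0 in the KO-host tumours, and 0 in each WT-host tumour. Its frameshift variants were 1 in A2 and 1 in B4, on all 3 of its listed transcripts.

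Pms1, a MutL homolog with a minor and less settled part in repair, held 1, 0 and 0 in the stiff tumours, 0, 4 and 2 in the soft tumours, 1, 1 and 3 in the KO-host tumours, and 0, 1 and 0 in the WT-host tumours. The HIGH-impact variants were in 3 tumours, A2 with 2 stop gained and 1 frameshift, A3 with 1 frameshift and B6 with 2 frameshift variants. A2 was the tumour with the most protein-altering variants in Msh6, Mlh3 and Pms1, and it held 31 over the 8 genes, more than any other tumour. Its own totals were 7973 missense variants (rank 5 from the highest of 12) and 2321 frameshift variants (rank 5). Both were the highest of the 6 gel tumours, and the tumours above A2 were the host tumours B1, B6, B2 and B3.

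Exo1, the exonuclease that digests the new strand from the nick past the error, had no HIGH, MODERATE or LOW variant on any of its 8 listed transcripts. No coding variant in any tumour was also found for 34.1% of protein-coding genes. Its MODIFIER variants ran from 6 to 19 per tumour, among them 0 to 10 in the 3' UTR. With no depth in the files, an absence of calls in the coding exons could not be told from an absence of reads there.

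Pole, the catalytic subunit of the polymerase that copies mainly the leading strand, held 8, 4 and 4 protein-altering variants in the stiff tumours, 3, 3 and 5 in the soft tumours, 7, 4 and 5 in the KO-host tumours, and 8, 3 and 5 in the WT-host tumours, a mean of 4.92 ± 1.83 (SD, n = 12). Missense variants ranged from 2 to 7 and were listed in every tumour. The kind of HIGH-impact variant differed between tumours. Frameshift variants were listed in A7, which had 3, and once each in A8, A9, B5, B1, B2 and B3, and stop gained variants in A3 with 1, B4 with 2 and B6 with 1. No tumour had both kinds, and A1 and A2 had neither.

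The tumours with a stop gained in Pole were A3, B4 and B6. Their missense totals were 7308 in A3 (rank 7 from the highest), 7445 in B4 (rank 6) and 10139 in B6 (rank 2). Whether the totals go with these variants was not tested. Every HIGH-impact variant of Pole lay on ENSMUST00000007296, 1 of its 3 listed transcripts. An in-frame insertion was listed once each in A7, A1, A2, A3, B5 and B6.

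Pold1, the catalytic subunit of the polymerase that copies the lagging strand and fills repair gaps, had the narrowest range of the genes altered several times per tumour. It held 3, 3 and 5 in the stiff tumours, 5, 4 and 4 in the soft tumours, 3, 3 and 3 in the KO-host tumours, and 3, 6 and 3 in the WT-host tumours, a mean of 3.75 ± 1.06 (SD, n = 12). At least 1 frameshift was listed in every tumour, with 2 in A1, 2 in A2 and 3 in B2. A splice donor variant was listed once in each of 10 tumours, while A9 had 2 and B5 had 0. With Msh6 it was 1 of 2 of the 8 genes with a HIGH-impact variant in all 12 tumours, against 2.97% of protein-coding genes. All of its protein-altering variants lay on ENSMUST00000049343 and none on its other listed transcript.

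**Figure D2:**
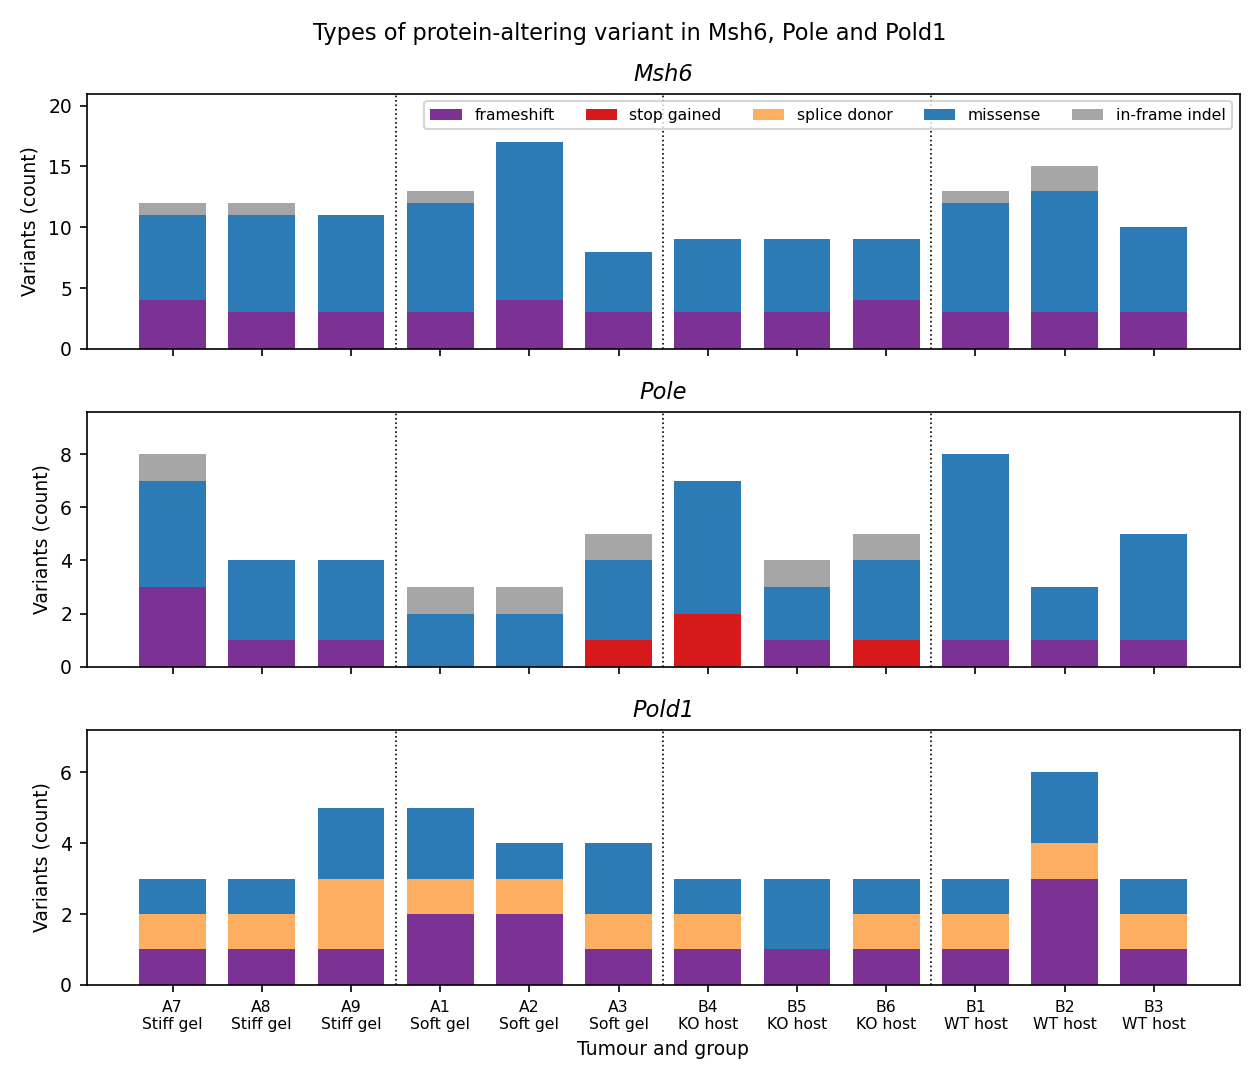
Protein-altering variants of Msh6, Pole and Pold1 in each tumour, as stacked counts of frameshift, stop gained, splice donor, missense and in-frame variants, with tumours ordered by group. The frameshift part of Msh6 stays at 3 or 4 while its missense part runs from 5 to 13, and in Pole frameshift and stop gained variants are not found in the same tumour.

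Genes that lie beside the 8 genes were looked at to see whether the counts belonged to a variant-rich stretch of the genome. Neighbours were the 5 nearest protein-coding genes on each side, in the order of the GRCm38.p6 annotation, among those with a listed variant. Around Msh6 they had a median of 0.167 mean protein-altering variants per tumour and none above 1.17, against 11.5 in Msh6 itself. Around Pole the neighbours' median was 0.542 and the highest 3.75, against 4.92 in Pole, and around Pold1 they were 0.25 and 3.08, against 3.75 in Pold1. For Exo1 the order was the other way round: 8 of the 10 neighbours had a higher mean than its 0, with a median of 0.708 and a highest of 4.83. Pms1, with a mean of 1.08, lay in a stretch where a neighbour had 7.08. Gene lengths were not taken into account.

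**Figure D3:**
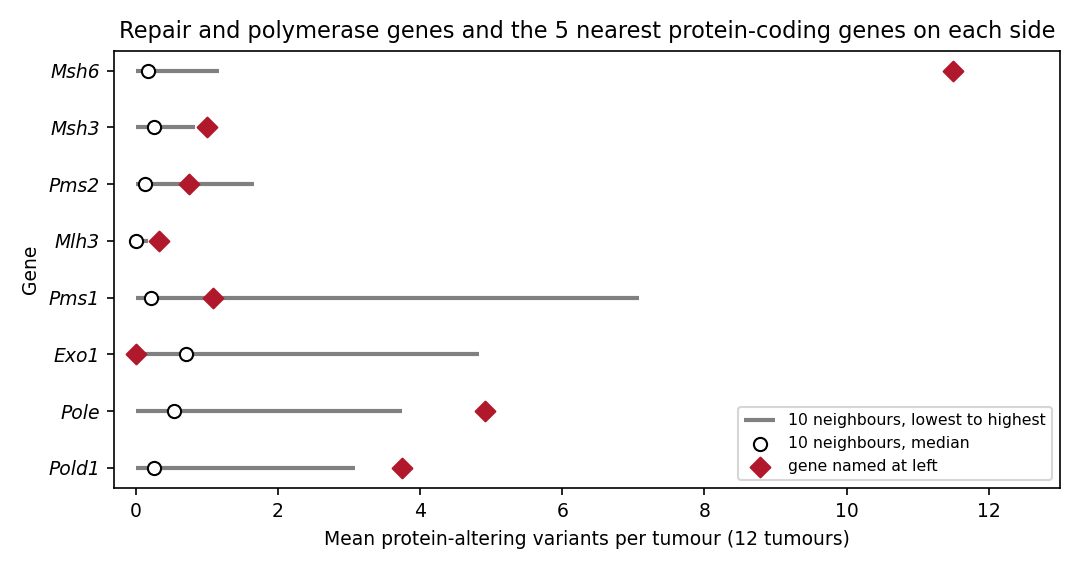
Mean protein-altering variants per tumour over 12 tumours (horizontal axis) for each of the 8 genes (diamonds) and for its 10 nearest protein-coding neighbours with a listed variant (open circle, median; grey line, lowest to highest). Msh6 at 11.5 lies far to the right of neighbours that reach 1.17, while Exo1 at 0 lies at the left end of neighbours that reach 4.83.

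Alongside, 24 genes whose proteins work with these 8 were counted: the sliding clamp and its loader, single-strand binding proteins, flap nuclease, ligase, accessory polymerase subunits, primase, the meiotic MutS homologs Msh4 and Msh5, and the histone methyltransferase Setd2. Of the 24, 16 had a protein-altering variant in at least 1 tumour and 8 had none (Lig1, Pola2, Pold2, Pold4, Prim2, Rfc3, Rpa1 and Rpa3). Of all 21292 protein-coding genes, 11826 had one in at least 1 tumour and 9466 had none. Partners and the 8 genes were both chosen with earlier results of these data known, so their medians describe the choice and carry no test. The median partner held 2 over the 12 tumours, against 12.5 for the 8 repair and polymerase genes and 1 over all protein-coding genes. The highest means were those of Msh5, which acts in meiotic crossing over, with 3.5 (2 to 5 in every tumour), of Setd2, whose histone mark is read by MSH6 in human cells, with 1.5 (0 to 3), and of Pold3, an accessory subunit of polymerase delta, with 1.25 (0 to 3). Of the 24, only Msh5 and the primase subunit Prim1 had a protein-altering variant in all 12 tumours, as had 7.48% of all protein-coding genes. All 5 protein-altering variants of Pole2, the second subunit of polymerase epsilon, were in B6.

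Stiff and soft gel tumours were compared to ask whether stiffness of the gel moved the counts of these genes. Msh6 averaged 11.7 ± 0.577 in stiff tumours and 12.7 ± 4.51 in soft tumours (SD, n = 3 each), Pole 5.33 ± 2.31 in stiff and 3.67 ± 1.15 in soft tumours, and Pold1 3.67 ± 1.15 in stiff and 4.33 ± 0.577 in soft tumours. These counts overlapped, and no gene of the 8 had stiff counts all above or all below the soft counts, which was the case for 1.18% (above) and 2.69% (below) of the genes tested. In edgeR's quasi-likelihood test the log2 fold change of stiff over soft was -0.12 (approximate SE 0.29) for Msh6, 0.53 (0.41) for Pole and -0.23 (0.25) for Pold1, with a Benjamini-Hochberg adjusted p of 1 for each. The approximate SEs can be too small. Of 4311 genes, 7 of the 8 among them, 0 passed, and 2.46% had an unadjusted p under 0.05. The values rested on single tumours: without A7 the log2 fold change of Pole was 0.12, and without A9 that of Pold1 was -0.51. The sign for Msh6 rested on A2: without it the stiff mean was 1.17 above the soft mean, against 1 below it with all tumours.

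Outside the full protein-altering counts, some kinds of Pole variant did not overlap between stiff and soft tumours. MODIFIER variants of Pole numbered 52, 49 and 59 in stiff tumours, against 39, 48 and 47 in soft tumours (two-sided exact permutation test, p = 0.1, the smallest that 3 against 3 allows). MODIFIER counts without overlap were higher in stiff tumours in 1.73% and lower in 8.13% of genes tested. Adjusted over all genes tested p was 1. Most MODIFIER variants of Pole were intronic, with 36, 32 and 42 in stiff tumours, against 25, 31 and 31 in soft tumours. These are part of the same count, came as close as 32 and 31, and were not tested on their own. Scaled to 10000 MODIFIER variants of the same tumour, Pole still averaged 1.5 ± 0.224 in stiff and 1.08 ± 0.0627 in soft tumours (SD, n = 3 each). On this scale 8.8% of genes were higher and 5.63% lower in stiff tumours without overlap. The frameshift variants of Pole in gel tumours, 3, 1 and 1, were all in stiff tumours, against 0, 0 and 0 in soft tumours. They are given without a test, because Pole passed the count filter for frameshifts through the stiff tumours alone. Of the genes that passed this filter, 0.972% had frameshift counts higher in stiff tumours without overlap, and 2.11% had them lower. HIGH-impact variants as a whole overlapped, since A3, a soft tumour, had a stop gained.

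KO-host and WT-host tumours were compared to ask whether loss of GPX4 in the host's myeloid cells went with other counts. Msh6 averaged 9 ± 0 in KO-host tumours and 12.7 ± 2.52 in WT-host tumours (SD, n = 3 each), and the groups did not overlap: 9, 9 and 9 in KO hosts, against 13, 15 and 10 in WT hosts. Counts without overlap were lower in KO hosts in 4.26% and higher in 0.735% of genes tested, the exact permutation p was 0.1, the smallest possible, and adjusted over all genes it was 1. Most of the difference lay in the missense variants, 5.67 ± 0.577 in KO-host and 8.67 ± 1.53 in WT-host tumours, also without overlap. Missense counts were lower in KO hosts without overlap in 3.82% and higher in 0.587% of genes tested. The rest of the difference in Msh6 lay in in-frame insertions and deletions, 0 in each KO-host tumour, against 1 in B1, 2 in B2 and 0 in B3. The frameshift variants of Msh6 overlapped, with 3, 3 and 4 in KO hosts and 3, 3 and 3 in WT hosts, and on HIGH-impact variants alone the sign was the opposite.

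In edgeR's quasi-likelihood test the log2 fold change of KO over WT hosts for Msh6 was -0.49 (approximate SE 0.17), with a Benjamini-Hochberg adjusted p of 1. It was 0 for Pole and -0.40 (0.34) for Pold1, with an adjusted p of 1 for both. These SEs can be too small, since edgeR's p did not follow its F alone, and they do not measure a distance from 0. The value for Pold1 rested on B2, without which the log2 fold change was 0, and that for Pole ran from -0.28 to 0.40 when 1 tumour was left out. Of 5308 genes, 6 of the 8 among them, 0 passed, and 3.75% had an unadjusted p under 0.05. The totals of the tumours moved with this comparison: 2 of 3 KO-host tumours had fewer missense variants (7445 in B4 and 5976 in B5) than any WT-host tumour (8714 to 11186), and B6, with 10139, lay among the WT-host tumours. Over all genes the median log2 fold change of KO over WT hosts was -0.31, and with scaling to each tumour's total of protein-altering variants Msh6 had -0.14 (edgeR adjusted p = 0.962).

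The other genes overlapped between KO and WT hosts in protein-altering variants. Pole averaged 5.33 ± 1.53 in KO-host and 5.33 ± 2.52 in WT-host tumours, Pold1 3 ± 0 in KO-host and 4 ± 1.73 in WT-host tumours, and Pms1 1.67 ± 1.15 in KO-host and 0.333 ± 0.577 in WT-host tumours (SD, n = 3 each). The MODIFIER variants of Mlh3 did not overlap, at 2, 2 and 3 in KO-host tumours, against 1, 1 and 1 in WT-host tumours (exact permutation p = 0.1, adjusted p = 1). Counts this low move by a single variant, and without overlap 1.01% of genes tested were higher and 6.84% lower in KO hosts.

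The 6 gel tumours were set against the 6 host tumours last. The experiments differ in gel, host genotype and possibly sequencing run, which cannot be told apart. Msh6 averaged 12.2 ± 2.93 in gel and 10.8 ± 2.56 in host tumours, Pole 4.5 ± 1.87 in gel and 5.33 ± 1.86 in host tumours, and Pold1 4 ± 0.894 in gel and 3.5 ± 1.22 in host tumours (SD, n = 6 each). In the exact permutation test over 924 assignments p was 0.476 for Msh6, 0.552 for Pole and 0.621 for Pold1, each adjusted to 1. None of the 8 genes had gel counts all above or all below the host counts, against 0% (above) and 0.205% (below) of the genes tested. edgeR called 0 of 6829 genes, 7 of the 8 among them, and 6.05% had an unadjusted p under 0.05.

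Outside the coding sequence, 4 of the 8 genes had MODIFIER counts with an unadjusted exact permutation p under 0.05 between gel and host tumours, as had 15.5% of all genes tested, and 0 genes passed adjustment. MODIFIER variants of Msh6 averaged 17 ± 6.13 in gel and 29.5 ± 9.59 in host tumours (exact permutation p = 0.0281, adjusted p = 0.28), and those of Msh3 28.2 ± 15.1 in gel and 55.3 ± 24 in host tumours (exact permutation p = 0.0476, adjusted p = 0.316). Mlh3 and Pms2 went the other way, with 3.83 ± 1.72 and 3.33 ± 1.03 in gel tumours, against 1.67 ± 0.816 and 2 ± 0.632 in host tumours (SD, n = 6 each; exact permutation, adjusted p = 0.3 and 0.316). The total of MODIFIER variants moved with it: 335381 to 452463 in gel tumours and 334408 to 695281 in host tumours. Scaled to 10000 MODIFIER variants of the same tumour, the exact permutation p was 0.195 for Msh6 and 0.115 for Msh3, while Mlh3 and Pms2 each had 0.00866 (adjusted p = 0.158), and 18.3% of genes had one under 0.05.

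The counts were then related to the total missense and frameshift variants of the tumours, each total taken without the gene's own variants. Of 6686 genes tested over the 12 tumours, 0 passed adjustment for either total. Unadjusted permutation p-values under 0.05 were reached by 18.5% of genes for missense and 17.8% for frameshift totals, and by none of the 8. Only 6 of the 8 could be tested, since Msh3 was the same in every tumour and Exo1 was 0. With LOW-impact variants included Msh3 could be tested too, with a second coding variant in B6 and B1, the tumours with the highest missense totals. Its r was then 0.79 with missense (permutation p = 0.0147, adjusted p = 0.164) and 0.70 with frameshift totals (permutation p = 0.0147, adjusted p = 0.177). The median r over all genes was 0.26 with missense and 0.27 with frameshift totals.

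Msh6, Pole and Pold1, the genes altered several times in every tumour, had low values. With the missense total, Pearson's r was 0.21 for Msh6 (permutation p = 0.524, Spearman's rho 0.21 with p = 0.514), 0.29 for Pole (p = 0.354, rho 0.29 with p = 0.355) and -0.04 for Pold1 (p = 0.893, rho -0.05 with p = 0.878). With the frameshift total, r was 0.29 for Msh6 (permutation p = 0.363, rho 0.23 with p = 0.471), 0.35 for Pole (p = 0.266, rho 0.34 with p = 0.28) and -0.11 for Pold1 (p = 0.739, rho -0.24 with p = 0.45). Pms2 had the highest r of the 6, 0.36 with missense (permutation p = 0.249, adjusted p = 0.556) and 0.40 with frameshift totals (p = 0.194, adjusted p = 0.489). Pms1 had 0.16 and 0.18, and Mlh3 -0.15 and -0.19, in the same order of totals.

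These values rested on few tumours. Without the 2 tumours farthest from the median total, B1 and B6 for missense and A9 and B1 for frameshift variants, r of Pole was -0.15 with missense and -0.03 with frameshift totals, and r of Pold1 was 0.39 and 0.29. That of Msh6 was 0.41 and 0.25, and that of Pms2 0.08 and 0.11. When 1 tumour was left out, r of Pms2 ran from 0.14 to 0.75 with missense and from 0.21 to 0.66 with frameshift totals. The upper ends were those without A7, which held 3 variants in Pms2 (permutation p = 0.00729 and 0.0295, adjusted p = 0.156 and 0.245). The tumours with 4 frameshift variants in Msh6, A7, A2 and B6, had 30.5, 29.1 and 28.5 frameshift variants per 100 missense variants, and the 9 tumours with 3 had 19.9 to 30.8, a relation that was not tested.

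Within the 6 gel tumours, Pms1 had an r of 0.99 with the missense total (exact permutation p = 0.00833 over 720 orders, rho 0.94 with p = 0.0167), which did not pass adjustment over the 4001 genes tested (adjusted p = 0.882), and 3.7% of them had an unadjusted p under 0.05. The highest counts were in A2 and A3, with 4 and 2 protein-altering variants in Pms1 and totals of 7973 and 7308. Without them r was 0.83 over 4 tumours, of which only A7 held a variant. In the 6 host tumours r was 0.04 (exact permutation p = 0.917). For Msh6 the r with the missense total was 0.49 within gel tumours (exact permutation p = 0.303) and 0.55 within host tumours (p = 0.258).

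**Figure D4:**
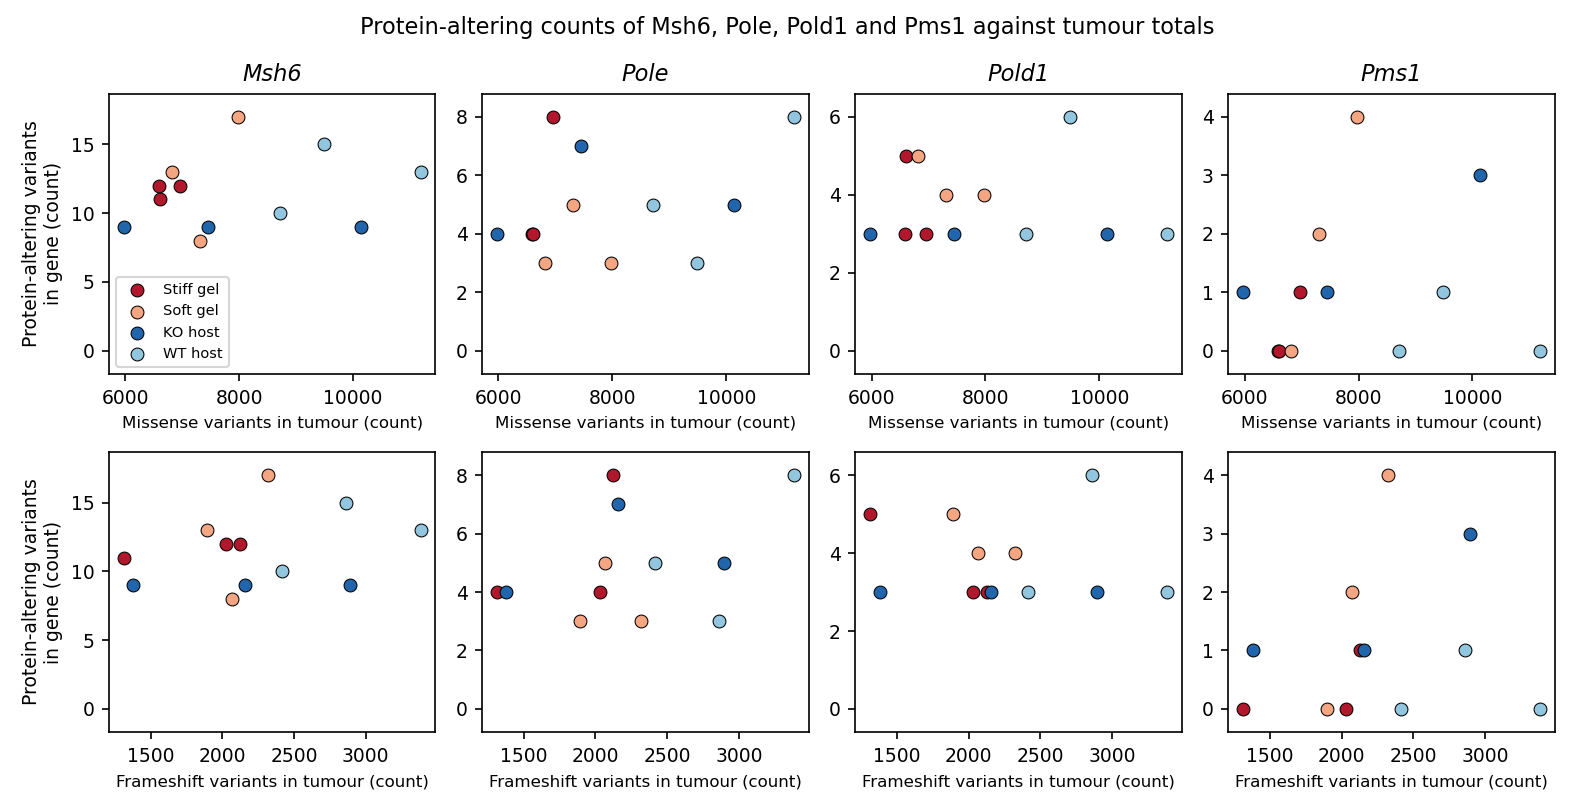
Protein-altering variants of Msh6, Pole, Pold1 and Pms1 (vertical axes) against the missense total (upper row) and the frameshift total (lower row) of each tumour, coloured by group. No panel shows an r beyond 0.35 over the 12 tumours.

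The genes whose counts ran most like those of Msh6 and Pole over the 12 tumours were looked up among 2815 genes with at least 12 protein-altering variants in all. For Msh6 they were Alk (Pearson's r 0.85), Ltk (0.82) and Helz (0.78). For Pole they were Serpina1a (0.88), Wdr81 (0.83) and Hivep3 (0.81). These are the highest of 2815 values over 12 points that share each tumour's total, and they carry no test. Serpina1a belongs to a family of near-identical copies, so its count is uncertain.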

How the data were processed

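Exome variants of 12 tumours were used, 3 per group. The deposited tables, made with snpEff per the file headers, give for each transcript a count of variants by impact and effect. Effect columns for lost or gained start and stop codons were read in the same way. Capture used a SureSelectXT kit and sequencing gave, per the labels' protocols, 150 bp read pairs at a stated depth above 50x. Per the submitters' processing notes, the genome build was GRCm39 and the tools included GATK, SAMtools 1.19.2 and BWA 2.2.1. How variants were called and filtered, and against which normals, is not stated in what was used here.

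The count of a gene was the maximum over its protein-coding transcripts, and 0 where none was listed. Genes with a sum of at least 3 were tested with edgeR 4.0.16 (quasi-likelihood, equal library sizes, Benjamini-Hochberg, threshold 0.05); the alternatives included DESeq2 1.42.0. The SE is approximate: the size of the log2 fold change was divided by the root of edgeR's F. It can be too small, because edgeR's p did not follow F alone. For stiff over soft without A9, Pold1 had an F of 12.8 with an unadjusted edgeR p of 0.447. Single differences were tested by two-sided exact permutation, and relations to totals by 100000 permutations (720 orders within 6 tumours). The edgeR and relation scripts were tested on simulated data.

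The 8 genes, the 24 partners and the tests were chosen with earlier results of these data known. Partners named are those that passed a test, the 3 with the highest mean and those in counts of 8 or fewer, the last chosen after their values were seen. The 3 genes most like Msh6 and Pole were named by r. Neighbours came from the GRCm38.p6 gene order, among the protein-coding gene names with a listed variant. Counts per protein length were planned and not made, as protein lengths were not used here. Nothing says that the tumours came from separate donors, so the spread behind each p-value is that of these tumours, which can be technical.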

Additional observations from a re-analysis of the deposited data

How the results depend on the processing

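Of the alternatives to each reported value, 681 gave the same reading, 35 moved it and 38 changed its sign. A fold change or r kept its reading unless its sign changed, it went to or from 0, or its adjusted p crossed the threshold of 0.05. No adjusted p crossed it. Those that went to or from 0 were counted as moved. A number of genes called, 0 in full, was counted as moved when it rose above 0. Mean differences were judged by sign alone, where a change to or from 0 was also counted as moved. Sizes could change within the same reading: r of Pms2 with missense totals was 0.36 in full, 0.08 without the 2 farthest tumours and 0.75 without A7. The 681 therefore do not show that sizes were stable. In all alternatives 0 of the 8 genes was called in any comparison or relation. Over all genes, leaving out 1 tumour gave 0 to 3 calls between gel and host tumours (3 without A2) and 0 to 3 for the frameshift relation (3 without B3), against 0 in full. The missense relation called 2 genes with LOW-impact variants included and 53 with a sum of at least 10, and the frameshift relation 2 and 8. DESeq2 called 0 genes with size factors 1.

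Signs changed as follows. The log2 fold change of Msh6 was 0.0312 for stiff over soft with scaling to the total, -0.36 to 0.15 when 1 tumour was left out, and 0.15 for KO over WT on HIGH-impact variants. That of Pole was -0.15 for stiff over soft on the median over transcripts, and 0.0525 (scaled) and 0.15 (median) for gel over host. In mean counts, leaving out 1 tumour gave -3.33 to 1.17 for Msh6 and -0.667 to 0.333 for Mlh3, stiff minus soft, and -0.4 to 0.567 for Pms1, gel minus host. The median over transcripts gave -0.333 for Pole, stiff minus soft, and 0.333, gel minus host. For relations with missense totals, r was -0.0961 for Pole and 0.19 for Pold1 on HIGH-impact variants. Without the 2 farthest tumours it was -0.15, 0.39 and, for Mlh3, 0.0668. Within gel tumours it was -0.15 for Pole, -0.0768 for Pms2 and 0.65 for Mlh3, and within host tumours 0.17 for Pold1. Leaving out 1 tumour gave -0.0657 to 0.47 for Pole, -0.35 to 0.13 for Pold1 and -0.0512 to 0.43 for Pms1. With frameshift totals, r was -0.00923 for Pole and 0.18 for Pold1 on HIGH-impact variants, and without the 2 farthest tumours -0.0338, 0.29 and, for Mlh3, 0.0565. Within host tumours it was 0.24 for Pold1 and -0.00418 for Pms1, within gel tumours 0.0541 for Mlh3, and without 1 tumour -0.47 to 0.0902 for Pold1. The causes were not tested.

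Scaling of MODIFIER counts, and mean differences without A9 and B5, were chosen after seeing the data. No paired analysis was possible because stiff and soft tumours share no replicate number, nor do KO-host and WT-host tumours. Between gel and host tumours only soft and WT-host tumours share numbers, and a block on them would leave out every stiff and KO-host tumour. With 3 against 3, no exact test can pass 0.05. The depth behind a count is unknown, and an absent variant cannot be told from an uncovered base.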
